A study of Drosophila melanogaster with 21 samples.

Results

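The genes studied here lie between 20 and 21 Mb of chromosome arm 2L of Drosophila melanogaster, a window whose RNA was lower in both clones of a cell line with a pum knockout. Members were the genes with a midpoint in that megabase (build dm6) whose mean in the wild-type line was 5 normalized counts or more. Of 146 genes listed in the window 58 met that minimum, against 8186 of 17555 in the whole table. The window was picked because its genes were low in both clones, so every value of the clones against wild type below is a description of that choice and supports nothing. The knockdown samples were not used for the choice.

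RNA came from DL1 cells, a Drosophila line derived from Schneider's embryonic cells, in 7 groups of 3 samples that the labels call biological replicates. In the knockdown groups, wild-type cells were bathed for 60 min in 20 µg of dsRNA (double-stranded RNA) to one of 3 fly genes, pum (Pum RNAi), Not1 (Not1 RNAi) or Pop2 (Pop2 RNAi), where RNAi is RNA interference. Control cells received dsRNA of LacZ, a gene of bacteria (LacZ RNAi), and harvest followed at 48 h. The other groups were the parental wild-type line (WT) and Pum knockout (KO) clones 1 and 2, with no dsRNA stated for them. Each clone is 1 isolate, so the spread of its 3 samples holds no difference between isolates. Poly(A)-selected RNA was turned into libraries by ClickSeq, in which azido-nucleotides end reverse transcription and an adapter is clicked on.

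Pumilio binds short elements in the 3' untranslated regions of mRNAs and represses them, in part by recruiting the CCR4-NOT complex. Not1 is the scaffold of that complex and Pop2 one of its deadenylases, the enzymes that shorten poly(A) tails. A chromosome window is no pathway: its neighbours share a place and not a task. The window lies toward the centromere-proximal end of the arm. It holds, among others, actin regulators, a septate junction scaffold, lipid and other metabolic enzymes, RNA-binding proteins and cell division genes.

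The library sizes recovered from the deposited means spanned 1543745 (library C of Not1 RNAi) to 9341881 resolved reads (library A of clone 1). Libraries are named A to C within a group by falling depth, since the files do not link them to replicate numbers. LacZ RNAi library C correlated with the other libraries of its group at 0.8993 and 0.8976 across 5769 genes and Not1 RNAi library C at 0.925 and 0.9255, against 0.9852 and 0.9943 between their partners. The counts of called members are also given with both libraries left out. Mean pum RNA was 1754.8 normalized counts with LacZ dsRNA and 542.6 with pum dsRNA in the authors' deposited table (log2 -1.69 ± 0.39, SE). Its log2 fold change was -1.55 ± 0.07 in clone 1 and -0.51 ± 0.07 in clone 2 there. Which bases of pum the clones lack is not stated in the labels, so reads outside them check nothing. Not1 and Pop2 had log2 fold changes of -3.27 ± 0.18 and -4.34 ± 0.31 by the authors' deposited table, each in its own knockdown. Hemocyte markers were present at a mean of at least 5 in WT in 15 of 15 cases. Their summed level was 28400 normalized counts in WT, 24643 in clone 1 and 26679 in clone 2, but single markers moved far and in both directions. Hml had means of 760.7, 68.7 and 202.4 in WT, clone 1 and clone 2, Tig 970.0, 19.5 and 182.6, crq 1419.5, 312.8 and 305.7, and He 916.8, 193.9 and 256.6. srp had 4903.7, 6898.4 and 6011.6, and lz 10.4, 4.0 and 918.6. Also higher in both clones were vkg (28.9, 196.4 and 376.7), Col4a1 (67.4, 188.1 and 440.6), ush (1405.6, 2119.8 and 2395.8) and eater (1767.0, 2095.8 and 1892.4). Most of each sum came from zfh1, Ppn and srp. In LacZ RNAi, normalized separately from WT, 13 of 15 hemocyte markers reached a mean of 5. Hml stood there at 30.4, Tig at 31.8, crq at 530.6, He at 340.8, srp at 4357.8 and lz at 0.00. Low means of Hml and Tig were thus not particular to the clones. Neuron markers (3 of 6 at that minimum) summed to 1110, 1742 and 1906, nearly all of it elav. Germline and gonad markers (5 of 8) summed to 4248, 6872 and 5231, with aub at 889.4, 55.1 and 306.0 and piwi at 353.8, 1745.7 and 1480.8. In LacZ RNAi aub stood at 94.2 and piwi at 149.9. Muscle markers (4 of 6) summed to 2493, 2401 and 2273, nearly all of it Mef2, and epithelial markers (5 of 5) to 7194, 6561 and 5262. Single epithelial markers moved both ways. crb had 496.4, 26.2 and 62.4 and Fas3 2120.6, 956.5 and 669.8 in WT, clone 1 and clone 2. shg had 409.0, 468.0 and 487.1, baz 305.4, 364.1 and 406.1, and sdt 3862.1, 4745.8 and 3637.1. The part of these differences in the window's values was not tested.

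In WT the members covered a wide range of levels. Per kb of gene the highest means were those of La, an RNA-binding protein gene (2335 normalized counts per kb), Pomp, a proteasome maturation factor (2281), CG2493 (2025), Arpc2, a subunit of the Arp2/3 actin nucleator (1839), CG9328 (1549) and CG31673 (1436). The median member stood at 130.2 per kb in WT, near the 125.4 of all genes at the same minimum. The lowest member just above the minimum was the antisense RNA asRNA:CR44907 at 5.94, and the gene just below it was cad, a homeobox gene, at 4.88 normalized counts. Of the 88 genes left out, 61 had a WT mean of 0, and 1 reached a mean of 5 in either clone. Members sat on both strands (28 plus, 30 minus), and 55 are annotated as protein coding and 2 as noncoding RNA, while 1 (RPA2) had no entry in the annotation used here. Another listed gene overlapped 40 of the 58, and no source used here states the strand setting of the counting, so such pairs may share reads.

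As a whole the window was lower in both clones. The 57 members resolved in every library summed to 42472, 42684 and 41863 normalized counts in WT, to 30691, 30756 and 30173 in clone 1 and to 29424, 29200 and 28323 in clone 2. No library of either clone reached the WT range. As a share of resolved reads the members took 0.741% ± 0.016 in WT, 0.523% ± 0.011 in clone 1 and 0.507% ± 0.011 in clone 2 (SD, n = 3 each). The denominators of these shares were smaller than the read totals given above, so the shares depend on the genes counted. The flanking window at 19 to 20 Mb took a mean of 1.11%, 1.04% and 1.05%, and that at 21 to 22 Mb 1.02%, 0.777% and 0.806%. In bulk samples fewer cells of a type and less RNA per cell cannot be told apart.

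The median member had a log2 fold change of -0.69 in clone 1 (quartiles -1.37 and -0.19) and of -0.68 in clone 2 (-1.22 and -0.20) in the authors' deposited table. Over all genes tested the medians were -0.07 and -0.04 there. At an adjusted p below 0.05, the authors' table called 39 members lower and 6 higher in clone 1, where 25.5% of all genes tested were called lower and 22.9% higher (30.9% and 27.8% of genes at the WT minimum). It called 37 lower and 2 higher in clone 2, against 23.5% and 21.3% of all genes (28.3% and 24.8% at the minimum). Lower in both clones were 35 members, against 19.7% of all genes (23.7% at the minimum), and higher in both were 2, against 17.5% (20.8%). Both clones were set against the same 3 WT libraries, and the window was chosen on these values, so nothing is read from the counts. Over the 18 members that overlap no other listed gene the medians were -0.26 and -0.28 in the authors' deposited table, with 8 and 9 called lower. By the authors' deposited table, 18 members were at least 2-fold lower in both clones and 7 at least 4-fold, while 11 were called in neither.

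**Figure D1:**
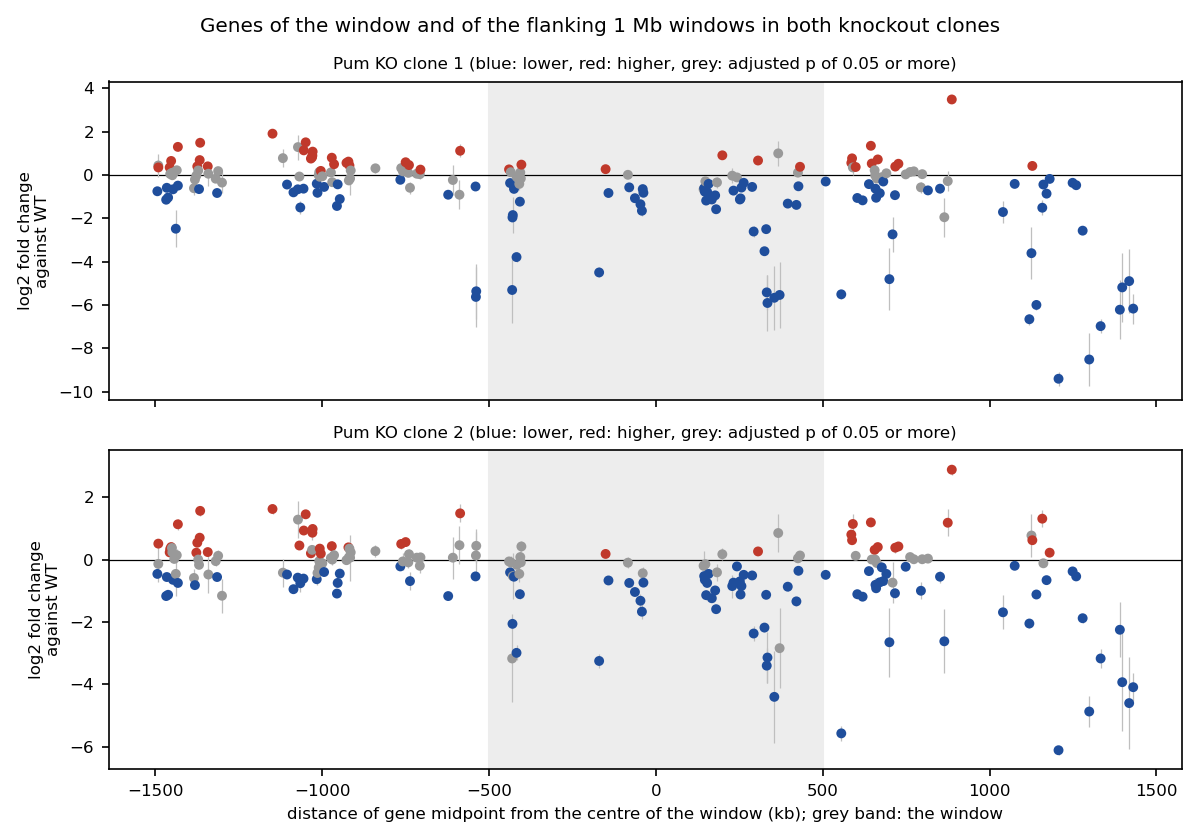
Log2 fold change of each gene (authors' deposited values, bars are SE) in clone 1 (top) and clone 2 (bottom) against WT, by distance of the gene's midpoint from the centre of the window in kb, with the flanking 1 Mb windows on both sides. Lower calls are blue, higher calls red and uncalled genes grey; in the grey band most points lie below 0, the member medians being -0.69 and -0.68.

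Low and uncalled genes were interspersed along the window, partly in runs of neighbours. All members from CG2611 to Cen were called lower in both clones, while the neighbours neb and CG10747 were called in neither. Members fell into 3 blocks set apart by gaps of over 100 kb: 14 genes from barr to mRpS18B, 10 from spir to CG2493 and 34 from CG17470 to CG9270. Measured between gene midpoints, the gaps were 233.0 kb and 180.3 kb wide. Of the first block 5 were lower in both clones in the authors' deposited table (medians -0.39 and -0.43), of the second 7 (-0.82 and -0.75) and of the third 23 (-0.75 and -0.75). The 9 members from 20.8 to 20.9 Mb had the lowest medians of any 100 kb bin in the window, -3.52 in clone 1 and -2.18 in clone 2. The 4 members at 20.9 to 21.0 Mb had medians of -0.20 and -0.16.

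The edges of the window were set by the megabase grid and not by the values. Inside the left edge, barr, a condensin subunit gene, had log2 fold changes of 0.26 ± 0.08 and -0.06 ± 0.08 in clones 1 and 2 in the authors' deposited table, and lok, the gene of the checkpoint kinase Chk2, of -0.37 ± 0.12 and -0.41 ± 0.12. Inside the right edge, CG9272 had -0.52 ± 0.12 and -0.36 ± 0.13, and CG9270 0.38 ± 0.14 and 0.13 ± 0.14 in the authors' deposited table. Just outside on the left, CG34051 stood at means of 7.30 in WT, 0.00 in clone 1 and 8.1 in clone 2, and CG42866 at 12.1, 0.36 and 16.3. Both were thus near 0 in clone 1 alone. Just outside on the right, CG42238 had -0.30 ± 0.08 and -0.49 ± 0.08 in the authors' deposited table. Itgbn, an integrin beta subunit gene, went from a mean of 777.3 in WT to 17.6 and 16.3 in the clones. Low values were thus also found beyond the right edge.

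The members were sorted by role with their values known, and the share lower in both clones was 60.3% in the whole window and 23.7% of all genes at the WT minimum, so a count below describes the listed genes and nothing about a role. Of the cytoskeleton and junction genes 6 of 7 were called lower in both clones, with neb, a kinesin gene, as the exception. The actin nucleator gene spir (FBgn0003475, 2L:20311219-20348386) had 2527.6, 2670.4 and 2225.9 normalized counts in the WT libraries, 116.0, 74.5 and 139.5 in clone 1 and 303.7, 262.9 and 215.0 in clone 2. Every clone library was far below the WT libraries, and clone 1 was below clone 2. The authors' deposited table gave spir a 22.62-fold lower level in clone 1 (log2 -4.50 ± 0.23) and a 9.49-fold lower one in clone 2 (-3.25 ± 0.23).

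The gene of the septate junction scaffold vari (FBgn0250785, 2L:20788662-20797042) had 137.7, 134.9 and 160.8 in WT, 27.3, 20.5 and 22.4 in clone 1 and 35.3, 26.3 and 21.4 in clone 2. The clones overlapped each other and lay below WT. Its fold was 6.11 lower in clone 1 (log2 -2.61 ± 0.25) and 5.16 lower in clone 2 (-2.37 ± 0.25) in the authors' deposited table. vari overlaps Pomp by part of its length, and Pomp itself had log2 fold changes of -0.55 ± 0.07 and -0.51 ± 0.07 there.

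Cen, which encodes the centrosomal protein Centrocortin, had 1529.5, 1608.8 and 1405.8 normalized counts in WT against 557.2, 448.6 and 519.8 in clone 1 and 501.5, 512.2 and 502.1 in clone 2, and its log2 fold changes were -1.58 ± 0.09 and -1.59 ± 0.09 in the authors' deposited table. Smaller differences were listed for Arpc2 (-0.57 ± 0.08 and -0.75 ± 0.08) and for the formin gene dia (-0.36 ± 0.07 and -0.49 ± 0.08) in the authors' deposited table. neb had -0.09 ± 0.12 and -0.17 ± 0.13 there. fok (FBgn0263773), which overlaps neb and lies on the other strand, had 1301.4, 1395.0 and 992.7 in WT, 90.6, 70.0 and 107.6 in clone 1 and 200.6, 131.4 and 130.6 in clone 2. Its log2 fold changes of -3.79 ± 0.24 and -2.99 ± 0.24 in the authors' deposited table were thus far from those of the gene it overlaps.

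All 5 metabolic genes were called lower in both clones, as were 60.3% of all members. bwa (FBgn0045064, 2L:20066391-20073719), the gene of an alkaline ceramidase, had 287.2, 258.8 and 243.4 normalized counts in WT, 70.6, 69.2 and 61.8 in clone 1 and 57.6, 66.2 and 66.4 in clone 2. The clone libraries overlapped each other and were all below WT. Its log2 fold changes were -1.96 ± 0.16 and -2.06 ± 0.17 in the authors' deposited table. Mtp, which encodes the microsomal triglyceride transfer protein, had -1.38 ± 0.14 and -1.34 ± 0.14, and Pyroxd1, an oxidoreductase gene, -1.23 ± 0.16 and -1.11 ± 0.17 there. Amacr, the gene of an alpha-methylacyl-CoA racemase, had -1.13 ± 0.17 and -0.70 ± 0.17, and pr, of pteridine synthesis, -0.64 ± 0.09 and -0.55 ± 0.09 in the authors' deposited table.

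In the group sorted as trafficking, signalling and membranes 7 of 8 were called lower in both clones, against the same 60.3%. That group also holds the proteasome maturation factor Pomp, which is among the 7. CarT, a carcinine transporter gene, was called lower in clone 2 alone (34.4, 29.6 and 25.1 in WT, 30.7, 28.1 and 28.8 in clone 1 and 19.5, 19.5 and 10.1 in clone 2). The kinase gene IKKepsilon had log2 fold changes of -0.94 ± 0.08 and -0.99 ± 0.09 in the authors' deposited table, TM9SF2, of a family of endomembrane proteins, -0.72 ± 0.08 and -0.74 ± 0.08, and brun, a tethering complex gene, -0.78 ± 0.09 and -0.75 ± 0.09. sky, which encodes a GTPase-activating protein of Rab GTPases, had 293.6, 309.3 and 292.1 in WT, 108.0, 128.5 and 122.5 in clone 1 and 167.2, 153.8 and 168.9 in clone 2.

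Genes of RNA, transcription and nuclear import were lower in both clones in 2 of 9 cases, and those of cell division and DNA in 2 of 6. The pair in the first group was Ns4, of the nucleostemin GTPase family (-1.08 ± 0.11 and -1.12 ± 0.12), and the helicase gene Rhau (-0.58 ± 0.11 and -0.85 ± 0.12, log2 in the authors' deposited table). In the second it was lok and phr6-4, a photolyase gene (-0.61 ± 0.14 and -0.53 ± 0.14 in the authors' deposited table). Fs(2)Ket, the gene of importin beta, had -0.11 ± 0.07 and -0.22 ± 0.07 there. The replication protein gene RPA2 and the general transcription factor gene Taf13 were called in neither clone.

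Members known by number or of no stated role were lower in both clones in 13 of 23 cases. CG9331, CG31673 and CG31674 lie next to each other on the plus strand, from 20822828 to 20832859. CG9331 had 471.1, 485.8 and 500.1 normalized counts in WT, 46.0, 41.8 and 38.3 in clone 1 and 115.2, 87.6 and 119.3 in clone 2. CG31673 had 1697.3, 1654.9 and 1922.0 in WT, 353.9, 266.9 and 305.7 in clone 1 and 784.8, 872.4 and 752.0 in clone 2. In both genes the libraries of the 3 groups were separate, with clone 2 between clone 1 and WT. CG31674 was scarcer, with 40.9, 42.8 and 53.1 in WT, 0.67, 2.3 and 0.00 in clone 1 and 3.7, 7.8 and 1.1 in clone 2, and it overlaps Oseg5. The log2 fold changes in clones 1 and 2 were -3.52 ± 0.16 and -2.18 ± 0.14 for CG9331, -2.50 ± 0.10 and -1.13 ± 0.10 for CG31673 and -5.42 ± 0.81 and -3.40 ± 0.55 for CG31674 in the authors' deposited table. CG18858 had -1.65 ± 0.24 and -1.67 ± 0.25 there.

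**Figure D2:**
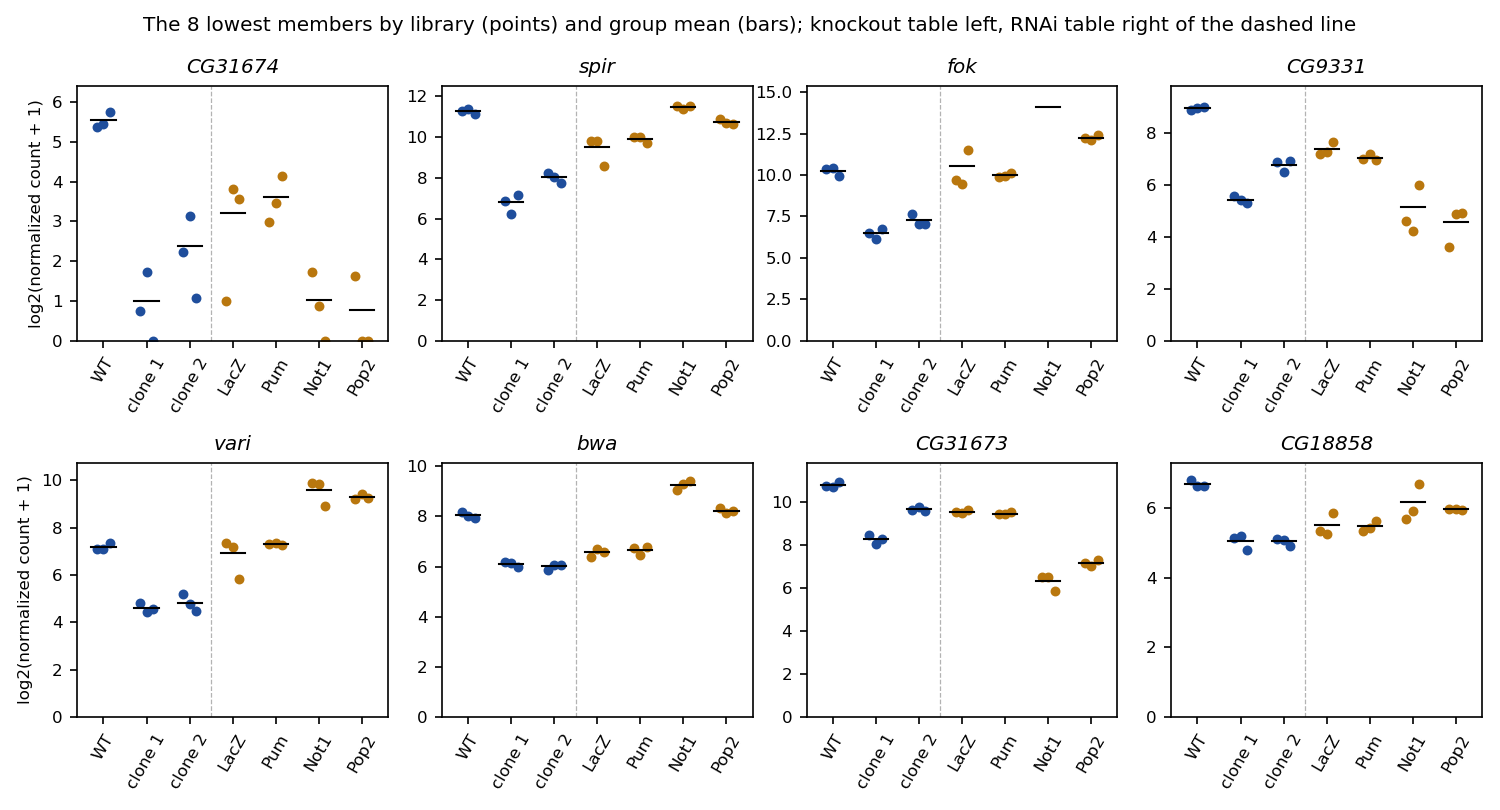
Level of the 8 members with the lowest mean log2 fold change over the clones, as log2(normalized count + 1), in each library (points) and as group mean (bars) of the 7 groups; the groups left and right of the dashed line come from tables normalized separately. In spir the WT libraries lie at 2225.9 to 2670.4 normalized counts and the clone 1 libraries at 74.5 to 139.5; the Not1 RNAi libraries of fok were not resolved and only their mean is drawn.

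The scarcest members approached the limit of detection. In clone 1 no read was found for twit, of the Ly6 family, CG14401 or asRNA:CR44907. Against a floor of 3 reads over the group, 0.799 normalized counts, twit was at least 9.44-fold lower, CG14401 at least 8.94-fold and asRNA:CR44907 at least 7.45-fold. The WT levels behind these bounds, summed reads over summed size factors, were 7.54, 7.14 and 5.95. Oseg5, an intraflagellar transport gene, had 44 reads in WT and 1 in clone 1, a ratio of 65.6 with a 95% counting interval of 11.2 to 2.65e+03. In clone 2 twit had 1 read (ratio 22.6, 3.59 to 938), CG14401 3 reads (7.13, 2.08 to 37.8) and asRNA:CR44907 2 reads (8.91, 2.07 to 80.3). These floors and intervals cover counting error only. The 4 genes met the minimum through their WT level, so the ratios to WT describe that choice and support nothing. In LacZ RNAi, normalized separately, Oseg5 and CG14401 each had a mean of 0.37, asRNA:CR44907 3.4 and twit 6.4. Setting the 3 members at 0 in clone 1 to their bounds could not move the median of -0.69, since all these bounds lie below it. In clone 2 (median -0.68) 0 members were at 0.

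A minority of members was higher in the clones. La (FBgn0011638) had 3612.8, 3415.0 and 3824.9 normalized counts in WT, 4318.0, 4584.3 and 4163.4 in clone 1 and 3976.9, 4242.3 and 4109.2 in clone 2, with every clone library above every WT library. CG9328 (FBgn0032886) had 3561.2, 3828.5 and 3301.2 in WT, 5465.0, 5596.4 and 5906.9 in clone 1 and 4876.0, 4074.9 and 3852.5 in clone 2, and its log2 fold changes were 0.67 ± 0.09 and 0.26 ± 0.09 in the authors' deposited table. La had 0.27 ± 0.07 and 0.18 ± 0.07 there, although it lies directly beside the end of spir, on the other strand. Hr38, a nuclear receptor gene, had 83.9, 83.3 and 115.1 in WT and 166.0, 188.6 and 168.3 in clone 1, and 97.5, 90.6 and 127.2 in clone 2, where the libraries overlapped those of WT. mRpS18B, of the small subunit of the mitochondrial ribosome, was called higher in clone 1 (log2 0.48 ± 0.18) and had 0.42 ± 0.19 in clone 2 in the authors' deposited table. The members lower in both clones had a median WT level of 204.6 normalized counts per kb and a median span of 2992 bases, against 62.9 and 1746 for the others. Over all genes at the WT minimum the medians were 125.4 per kb and 2784 bases, and the same split was not made there. A low WT level limits which members can be called. WT also enters the calls themselves, so nothing is read from this contrast.

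The clones differed from each other in some members, in a limma fit of clone 2 against clone 1 that was chosen after seeing the data. Of 55 members in that fit 6 were higher and 4 lower in clone 2 (adjusted p below 0.05), 10.9% and 7.27%, where 12.6% and 10.8% of all genes tested were called. The shares among the members were thus below those of all genes. By limma, CG31673 was higher in clone 2 by 1.38 ± 0.09 on the log2 scale (adjusted p = 1.54e-10), CG9331 by 1.32 ± 0.13 (adjusted p = 7.97e-08) and spir by 1.27 ± 0.16 (adjusted p = 1.89e-06). limma gave Hr38 -0.74 ± 0.15 (adjusted p = 0.000815), CarT -0.85 ± 0.26 (adjusted p = 0.0197) and CG9328 -0.41 ± 0.08 (adjusted p = 0.000839). bwa (-0.08 ± 0.13, adjusted p = 0.7) and Cen (-0.00 ± 0.08, adjusted p = 0.983) were among the deeply lowered members with no difference called by limma.

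Knockdown of pum for 48 h gave no call among the members. The median log2 fold change of Pum RNAi against LacZ RNAi was 0.01 (quartiles -0.17 and 0.29, range -0.92 to 0.94) in the authors' deposited table, against -0.02 over all genes tested. The authors' DESeq2 test called 0 of 56 members in either direction, where it called 0.221% of all genes lower and 0.512% higher (0.239% and 0.552% at the WT minimum). At an unadjusted p below 0.05 it had 3 members lower and 2 higher. limma with all libraries also called 0, and it called 0.0133% of all genes lower and 0% higher. With library C of LacZ RNAi and of Not1 RNAi left out, limma called 1 of 53 members lower, CG31688 (-0.62, adjusted p = 0.0209), and 2 higher, Pomp (0.43, adjusted p = 0.0181) and CG9328 (0.40, adjusted p = 0.0317), where it called 3.79% and 4.03% of all genes. CG31688 had 363.5, 250.8 and 295.0 normalized counts in LacZ RNAi and 208.6, 182.4 and 196.1 in Pum RNAi.

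The members lowest in the clones showed no such values after knockdown of pum. spir had 907.3, 905.6 and 377.5 normalized counts in LacZ RNAi and 1018.2, 1026.9 and 847.5 in Pum RNAi, with 1 low control library (log2 0.39 ± 0.28 by the authors' deposited table, adjusted p = 0.693). CG31673 had 738.9, 707.4 and 791.8 and 684.4, 692.2 and 733.2, with overlapping ranges (log2 -0.08 ± 0.13 by the authors' deposited table, adjusted p = 0.881). bwa had 82.8, 101.8 and 95.5 and 105.9, 86.5 and 110.0, and vari 162.5, 144.5 and 56.4 and 157.6, 162.3 and 154.9. Cen had the smallest adjusted p of the members, 0.439, with 946.7, 875.0 and 1108.6 in LacZ RNAi and 822.0, 802.2 and 793.3 in Pum RNAi (log2 -0.27 ± 0.12 in the authors' deposited table). A p above the threshold does not show that these levels were alike. Knockdown and knockout differ in how long and how far pum was reduced and were not compared by a test.

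**Figure D3:**
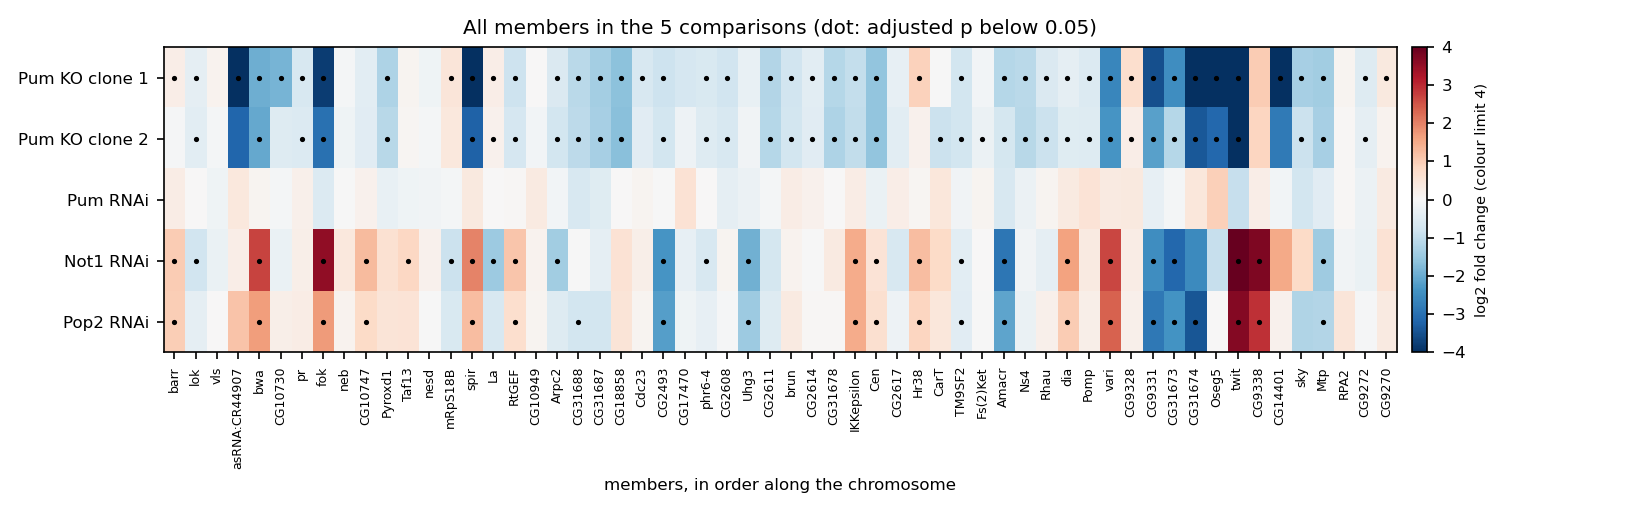
Authors' log2 fold changes of the 58 members, in chromosomal order from left to right, in the clones against WT and in the knockdowns against LacZ RNAi, with colours limited at 4 in either direction and a dot where the adjusted p was below 0.05. The clone rows are mostly blue, the Pum RNAi row has no dot, and the Not1 RNAi and Pop2 RNAi rows hold 14 and 13 higher and 12 and 9 lower calls.

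Knockdown of the CCR4-NOT subunits changed members in both directions. In Not1 RNAi 14 of 56 members rose and 12 fell by the authors' DESeq2 test, 25% and 21.4%, where 25.7% of all genes rose and 24.2% fell (26.5% and 26.7% at the WT minimum). In Pop2 RNAi 13 rose and 9 fell, 23.2% and 16.1%, where 18.8% of all genes rose and 20.1% fell (19.9% and 22.1% at the minimum). The shares of called members in the window were thus near those of all genes. The median log2 fold changes were 0.13 in Not1 RNAi and 0.11 in Pop2 RNAi in the authors' deposited table, against 0.01 and -0.05 over all genes tested. Over the 18 members that overlap no other listed gene the Not1 RNAi median was -0.21 in that table, with 3 higher and 7 lower calls. With all libraries limma called 13 members higher and 13 lower in Not1 RNAi (27.3% and 26.6% of all genes) and 12 and 8 in Pop2 RNAi (20.1% and 18.2%). With library C of LacZ RNAi and of Not1 RNAi left out, it called 21 higher and 15 lower in Not1 RNAi (35.9% and 34.7% of all genes), and 17 and 15 in Pop2 RNAi (32.4% and 32.2%). The lower count in Pop2 RNAi was 14 with library C of Not1 RNAi alone left out, which enters that fit through the shared estimate of spread. Both knockdowns were set against the same LacZ RNAi libraries. The RNA was poly(A)-selected and these subunits act on poly(A) tails, so a change of capture and a change of amount cannot be told apart.

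Of the 7 cytoskeleton and junction genes, 5 rose in Not1 RNAi and in Pop2 RNAi, where 26.5% and 19.9% of all genes at the WT minimum rose. These were spir, vari, dia, RtGEF and Cen. spir had 2970.1, 2701.0 and 2936.3 normalized counts in Not1 RNAi and 1882.5, 1675.8 and 1622.7 in Pop2 RNAi, every library above the 907.3, 905.6 and 377.5 of LacZ RNAi. The rises of spir were 1.97 ± 0.28 (adjusted p = 1.56e-11) and 1.24 ± 0.28 (adjusted p = 6.12e-05) in log2 units by the authors' deposited table. vari had 162.5, 144.5 and 56.4 in LacZ RNAi, 937.2, 917.5 and 486.0 in Not1 RNAi and 587.4, 695.2 and 602.8 in Pop2 RNAi. No library of either knockdown overlapped the control range, with rises of 2.67 ± 0.34 (adjusted p = 2.68e-14) and 2.35 ± 0.33 (adjusted p = 4.64e-11) in the authors' deposited table. dia rose by 1.61 ± 0.18 (adjusted p = 1.16e-18) and 1.00 ± 0.18 (adjusted p = 1.46e-07) there. The actin nucleator subunit gene Arpc2 fell in Not1 RNAi (log2 -1.39 ± 0.23 by the authors' deposited table, adjusted p = 9.1e-09).

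Rises also came from members of other kinds. bwa had 82.8, 101.8 and 95.5 normalized counts in LacZ RNAi, 532.6, 625.7 and 671.3 in Not1 RNAi and 317.2, 279.3 and 291.9 in Pop2 RNAi. Its level was 6.50-fold higher in Not1 RNAi (log2 2.70 ± 0.18, adjusted p = 4.71e-48) and 3.19-fold higher in Pop2 RNAi (1.67 ± 0.18, adjusted p = 1.34e-18) in the authors' deposited table. twit went from 3.9, 8.8 and 6.5 in LacZ RNAi to 110.6, 77.9 and 197.7 in Not1 RNAi and 86.4, 64.5 and 88.2 in Pop2 RNAi, the largest rises among the members by the authors' table (4.28 ± 0.52, adjusted p = 3.83e-15, and 3.66 ± 0.52, adjusted p = 4.16e-11). CG9338, its neighbour, went from 2.0, 1.1 and 2.2 to 19.7, 19.1 and 32.9 in Not1 RNAi and 13.8, 14.4 and 9.5 in Pop2 RNAi. IKKepsilon had 463.0, 472.0 and 305.9 in LacZ RNAi, 1443.4, 1326.0 and 716.6 in Not1 RNAi and 1125.1, 1201.4 and 1172.5 in Pop2 RNAi, and its rise was 1.49 ± 0.25 in Pop2 RNAi (adjusted p = 6.21e-08) in the authors' deposited table.

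fok rose in both, and 1 control library stood apart. It had 823.6, 699.7 and 2976.4 normalized counts in LacZ RNAi and 4809.3, 4483.9 and 5451.1 in Pop2 RNAi, and its Not1 RNAi mean was 17673.2 in the authors' deposited table. Its Not1 RNAi libraries were not resolved, so it was in no limma fit of the knockdowns. The authors' deposited table gave fok rises of 3.56 ± 0.59 (adjusted p = 1.65e-08) in Not1 RNAi and 1.71 ± 0.59 (adjusted p = 0.0131) in Pop2 RNAi.

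The falls were deepest in numbered genes and enzymes. CG31673 had 738.9, 707.4 and 791.8 normalized counts in LacZ RNAi, 90.2, 89.5 and 57.7 in Not1 RNAi and 142.4, 129.0 and 154.5 in Pop2 RNAi. Its falls were -3.13 ± 0.16 (adjusted p = 9.4e-81) and -2.39 ± 0.14 (adjusted p = 1.41e-62) in log2 units by the authors' deposited table. CG9331, beside it, had 142.8, 150.0 and 197.4 in LacZ RNAi, 23.5, 17.4 and 61.8 in Not1 RNAi and 11.1, 28.1 and 29.4 in Pop2 RNAi. CG31674, the third of that row, fell in Pop2 RNAi (-3.43 ± 1.23 by the authors' deposited table, adjusted p = 0.0174), at levels of 0.99, 13.1 and 10.8 in LacZ RNAi and 2.1, 0.00 and 0.00 in Pop2 RNAi.

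CG2493, the member with the highest WT mean, had 1795.9, 1823.3 and 1581.5 normalized counts in LacZ RNAi, 297.0, 336.5 and 403.6 in Not1 RNAi and 375.3, 350.6 and 413.3 in Pop2 RNAi. The authors' deposited table gave it falls of -2.37 ± 0.14 (adjusted p = 6.2e-65) and -2.19 ± 0.13 (adjusted p = 6.12e-61). In the authors' deposited table Amacr had falls of -2.90 ± 0.45 (adjusted p = 1.15e-09) and -2.12 ± 0.41 (adjusted p = 2.23e-06), with 84.7, 88.7 and 230.0 in LacZ RNAi, where library C stood high. With library C of LacZ RNAi and of Not1 RNAi left out, limma gave Amacr -2.23 in Not1 RNAi and -1.49 in Pop2 RNAi. Uhg3, a host gene of small nucleolar RNAs, had 213.8, 201.5 and 303.7 in LacZ RNAi, 62.1, 63.8 and 57.7 in Not1 RNAi and 83.6, 72.9 and 107.1 in Pop2 RNAi. La fell in Not1 RNAi (log2 -1.45 ± 0.31 by the authors' deposited table, adjusted p = 1.71e-05), from 3514.0, 3664.1 and 2802.8 to 1564.6, 1519.1 and 551.8. sky was not called, with 239.4, 150.0 and 709.4 in LacZ RNAi and 197.8, 182.3 and 1519.6 in Not1 RNAi, library C standing high in both.

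Members lower in both clones were called in the CCR4-NOT knockdowns in both directions. Of 34 such members tested, 9 rose and 9 fell in Not1 RNAi (26.5% each), and 9 rose and 8 fell in Pop2 RNAi (26.5% and 23.5%) by the authors' DESeq2 test. Of the 22 others, 5 rose and 3 fell in Not1 RNAi, and 4 rose and 1 fell in Pop2 RNAi. Among all genes with the same WT minimum that were lower in both clones, 40.4% rose and 21.8% fell in Not1 RNAi and 32.2% rose and 19.3% fell in Pop2 RNAi. Among the genes at that minimum that were not lower in both clones, 22.2% rose and 28.2% fell in Not1 RNAi and 16.2% rose and 22.9% fell in Pop2 RNAi. No test was made of the difference between the window and these genes.

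Set among 123 windows of 1 Mb with at least 10 genes, the 20 to 21 Mb window had the lowest median in clone 1 and in clone 2, by its choice, and the 2nd highest share of genes lower in both clones, 60.3%. Its neighbour at 21 to 22 Mb had the 4th lowest median in clone 1 (-0.45) and the 2nd lowest in clone 2 (-0.42) in the authors' deposited table, with 27 of 56 genes lower in both clones. The neighbour at 19 to 20 Mb had medians of 0.05 and 0.06, and 20 of 85 genes were lower in both there. Low values were not limited to this part of 2L. The highest share lower in both, 63.6%, was at 1 to 2 Mb of 2R (11 genes, medians -0.54 and -0.40). The 3rd highest, 50%, was at 22 to 23 Mb of X (24 genes, -0.40 and -0.28). At 22 to 23 Mb of 2L the medians were -0.53 and -0.26. In the knockdowns the window's medians ranked 79th from the lowest in Pum RNAi, 94th in Not1 RNAi and 109th in Pop2 RNAi, inside ranges of -0.31 to 0.20, -0.83 to 0.58 and -0.70 to 0.47. The window at 21 to 22 Mb had medians of -0.51 in Not1 RNAi and -0.35 in Pop2 RNAi, and that at 19 to 20 Mb of -0.32 and -0.06, in the authors' deposited table.

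**Figure D4:**
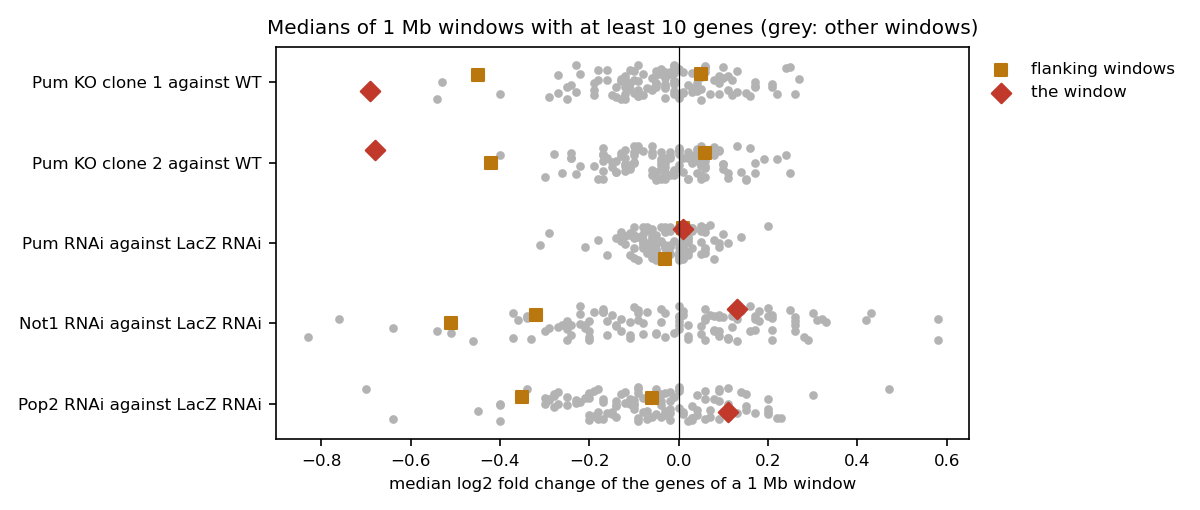
Median log2 fold change of the genes of each 1 Mb window (grey points, 123 windows) in the clones against WT and the knockdowns against LacZ RNAi; the diamond is the 20 to 21 Mb window and the squares are its neighbours, and vertical scatter within a row has no meaning. The diamond is lowest in both clone rows (-0.69 and -0.68) and lies inside the other windows in the knockdown rows (0.01, 0.13 and 0.11).

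WT and LacZ RNAi cells are both unedited DL1 cells, in tables that were normalized separately, so their levels were set side by side with no test. The median of log2((LacZ RNAi + 1)/(WT + 1)) was -0.62 over the members and -0.63 over all genes at the WT minimum. For the 18 members at least 2-fold lower in both clones it was -0.96, and for the 757 such genes of the whole table -1.85. These values share the WT libraries with the clone values. spir, for example, stood at a mean of 2474.6 in WT and 730.1 in LacZ RNAi, and Oseg5 at 17.6 and 0.37. The members' summed share of resolved reads was 0.664% ± 0.078 in LacZ RNAi, 0.767% ± 0.029 in Pum RNAi, 0.656% ± 0.099 in Not1 RNAi and 0.708% ± 0.017 in Pop2 RNAi (SD, n = 3 each). These shares, and the sums below, cover 57 members and leave out fok, whose Not1 RNAi libraries were not resolved. Mean fok RNA was 1499.9 in LacZ RNAi, 17673.2 in Not1 RNAi and 4914.8 in Pop2 RNAi, so its absence lowers the knockdown shares most. Without fok, the shares of Not1 RNAi (0.541 to 0.713) and Pop2 RNAi (0.688 to 0.72) overlapped those of LacZ RNAi (0.575 to 0.72). With these denominators the shares of Pum RNAi (0.733 to 0.787) lay above those of LacZ RNAi. That order depends on the genes counted in the denominator, so no difference is read from it. In summed normalized counts Pum RNAi (27710 to 29924) overlapped LacZ RNAi (25991 to 27829).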

How the data were processed

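RNA of 21 samples in 7 groups was compared from 2 tables (knockdowns and knockouts), which do not share a normalization. As deposited signal, per the file headers, each group has 1 mean normalized count per gene, also given per kb. Fold changes in log2 were deposited by the authors with their standard errors (the ± of every such value), and the deposited p-value columns are the authors' DESeq2 p-values and adjusted p-values. Per the submitters' processing notes, the tools were fastp 0.14.1, HISAT2 2.1.0, UMI-tools 1.0.1, featureCounts and DESeq2 1.23.110, with build dm6. Lines with no gene (7, at most 0.0742% of counts) were left out.

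The authors' test with an adjusted p below 0.05 is the main one, since the tables hold no counts per sample. The reads of each library were recovered from the means as whole multiples of 1 read's worth, for genes with a mean under 10000 (at least 99.23% of genes in every group), and the recovery was tested on simulated data. limma 3.58.1 (R 4.3.3) on log2(normalized count + 1) of genes with a mean of at least 5, adjusted over all genes, was the alternative test. It was also run without single libraries.

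The window, its members and the role groups were chosen with earlier results of these data known. Named members are the 8 lowest and 8 highest over the clones (WT mean of at least 20), the 6 largest calls each way per knockdown, the 6 highest WT means and means per kb, and the genes at the edges of the window and of the WT minimum. Others were named by role after their values were seen, CarT and sky among them. The labels do not say what separates the replicates of a group, so p-values measure the spread between these samples. Annotation came from Ensembl genes on the same coordinates (57 of 58 members matched).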

Additional observations from a re-analysis of the deposited data

Results flagged for a closer look

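A limma comparison of clone 2 with clone 1 (on log2(normalized count + 1), adjusted over all genes) was chosen after seeing the data. By it, levels differed between the clones in 10 members. These were 10.9% of the 55 members tested higher and 7.27% lower, below the 12.6% and 10.8% of all genes, so the number is not a result about the window. Higher in clone 2 were CG31673 (1.38 on the log2 scale), CG9331 (1.32), spir (1.27), fok (0.77), sky (0.45) and Amacr (0.42), all members below WT in both clones. Lower in clone 2 were CarT (-0.85), Hr38 (-0.74), CG9328 (-0.41) and barr (-0.33). CarT stood at means of 29.2 in clone 1 and 16.4 in clone 2, and Hr38 at 174.3 and 105.1. The same libraries chose the window, and each clone is 1 isolate, so the difference is between these isolates. Its cause was not tested.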

How the results depend on the processing

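No paired analysis was possible because the deposited tables hold group means, and the libraries recovered from them carry no replicate numbers. Of all alternatives tried, 225 values kept their direction and size class, 5 moved, 12 became weaker and 5 stronger. Leaving out the 40 members that overlap another listed gene left 18, with medians of -0.21 in Not1 RNAi, -0.26 in clone 1 and -0.28 in clone 2. Of these 18, 7 were lower and 3 higher in Not1 RNAi, 4 and 3 in Pop2 RNAi, and 8 and 9 were lower in clones 1 and 2. Leaving out only members that overlap a gene at the WT minimum, chosen after seeing the data, left 25, with medians of -0.52 and -0.49 in the clones, 13 and 14 lower there, and 6 higher in Not1 RNAi and in Pop2 RNAi. Fewer members were counted in both cases. At an adjusted p below 0.1, 15 members were lower in Pop2 RNAi. With library C of LacZ RNAi and of Not1 RNAi left out, an alternative chosen after seeing the data, limma also called 15 lower in Pop2 RNAi (32.2% of all genes) and 21 higher in Not1 RNAi (35.9%), and 1 lower and 2 higher in Pum RNAi. At an adjusted p below 0.01, 1 member was higher in clone 2. With 1 library of the same fit left out at a time, limma called 12 to 18 members higher and 11 to 13 lower in Not1 RNAi, and 10 to 15 higher and 6 to 14 lower in Pop2 RNAi, where 14 came without library C of Not1 RNAi and 6 to 9 without any other library. The counts were 36 to 39 lower and 6 to 7 higher in clone 1, and 35 to 39 lower and 1 to 3 higher in clone 2, with 1 without library C of clone 2. Pum RNAi gave 0 throughout. Between the clones, 5 to 7 members were higher and 3 to 6 lower in clone 2.

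Depth limits the members near 5 normalized counts, where a clone's 3 libraries held 0 to 3 reads in several cases. Shares of reads and normalized counts are relative to other genes.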
